A study of Mus musculus with 14 samples.

Results

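Cells of the adult mouse subependymal zone (SEZ), the neurogenic tissue beneath the lining of the lateral ventricle, were sorted by fluorescence for GFP and prominin together (SEZ_GFPprom, 4 arrays) or for prominin (SEZ_Prom, 2 arrays), and the first group was compared with the second. These 6 of the 14 arrays of the series were chosen by their titles. All groups came from mice of the hGFAP-eGFP line, 8 weeks old, whose transgene uses the promoter of the human gene for glial fibrillary acidic protein to make enhanced GFP. GFP therefore marks astrocytes and other cells that use this promoter. The labels call both sorts neural stem cells and do not say whether the SEZ_Prom gate left out GFP-positive cells. The remaining arrays held SEZ cells sorted for GFP (SEZ_GFP, n = 2), SEZ cells sorted for CD24 (SEZ_CD24, n = 2, called ependymal) and diencephalic cells sorted for GFP (DIEC_GFP, n = 4, called astrocytes). They entered the same fit to estimate the spread and are given below as levels only. The labels name the arrays biological replicates without giving the animals behind them, so p-values measure the spread between arrays, and the number of arrays limits the precision. In RNA of a sorted population, fewer cells of a type and less RNA per cell cannot be told apart.

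Prominin is a membrane protein of apical protrusions and cilia, carried by neural stem cells that reach the ventricle and by ependymal cells. Ependymal cells line the ventricle and bear tufts of motile cilia. A motile cilium is built on an axoneme of microtubule doublets, with dynein arms as motors, nexin links between doublets, and radial spokes and a central pair that coordinate the beat. In multiciliated cells the forkhead factor Foxj1 and factors of the Rfx family switch on the genes of these parts, and Rfx proteins bind the X-box, an inverted repeat found near the start of many cilium genes.

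Because 50 genes of the motile cilium were higher in SEZ_GFPprom than in SEZ_Prom cells, their promoters were searched for this repeat, from 250 bases before to 50 after the gene's start (RefSeq, GRCm38.p6, 1 window a gene, both strands). The letters GTTNCCNNNGNAAC, in which N is any base, join both arms of the repeat. They occurred in 7 of the 40 such genes with a promoter in the table (17.5%), in 1 of 9 cilium genes that did not pass the test (11.1%) and in 139 of all 14453 promoters (0.962%). Of all genes higher in SEZ_GFPprom cells, 18 of 644 held them (2.80%), and of all genes lower there, 3 of 406 (0.739%). The windows with this match are shown on the strand of the gene, with the match in capitals. In Cfap45 and Tekt4 the letters match on the opposite strand, so the capitals there are their reverse complement.
Ccdc151, a dynein arm docking protein (chr9:22002635-22002692, minus strand): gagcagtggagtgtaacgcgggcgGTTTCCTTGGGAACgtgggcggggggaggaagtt
Spag16, a central pair protein (chr1:69826843-69826904, plus strand): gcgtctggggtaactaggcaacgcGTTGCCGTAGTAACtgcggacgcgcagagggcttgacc
Iqca (chr1:90153499-90153560, minus strand): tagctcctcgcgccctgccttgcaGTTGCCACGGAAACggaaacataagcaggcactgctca
Cfap45, a protein inside the doublets (chr1:172521087-172521129, plus strand): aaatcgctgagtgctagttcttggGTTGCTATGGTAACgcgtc
Cfap61, a radial spoke protein (chr2:145934752-145934789, plus strand): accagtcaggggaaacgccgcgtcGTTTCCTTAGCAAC
Enkur (chr2:21205364-21205401, minus strand): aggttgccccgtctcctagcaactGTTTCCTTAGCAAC
Tekt4, a tektin of the doublets (chr17:25471566-25471603, plus strand): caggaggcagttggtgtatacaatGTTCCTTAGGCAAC

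A single arm of the repeat, GTTGCC, was present in 13 of the 40 higher cilium genes (32.5%), in 5 of the 9 that did not pass (55.6%) and in 1851 of all promoters (12.8%), and some of these matches lie within the longer one. The forkhead letters TGTTTAC were present in 2 of the 40 (5.0%) and in 408 of all promoters (2.82%). These spellings were chosen after several had been tried on these genes. A match describes the letters of the window and is neither a binding site nor a cause.

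Of the 18193 genes tested, 800 (4.40%) were higher and 502 (2.76%) were lower in SEZ_GFPprom than in SEZ_Prom cells, 7.16% in all (limma, adjusted p under 0.05). Of these, 147 were higher and 14 lower by at least 8-fold with intensities under 10 set to 10. A fold given with this floor is followed by the adjusted p of the fit on floored values. The median difference over all genes was 0.04 on the log2 scale, and the arrays of the groups did not overlap at 31.2% of genes. Of the 1302 genes past the threshold, 1301 had arrays that did not overlap, so a lack of overlap adds little to a call. Arrays correlated at r = 0.9435 to 0.9659 within SEZ_GFPprom, 0.9695 within SEZ_Prom and 0.8993 to 0.9255 between the groups, over genes. The log2 ratio of 3′ over 5′ probe sets of control transcripts, which reads RNA amplification, was 4.78 to 5.17 in SEZ_GFPprom and 4.58 and 4.68 in SEZ_Prom, so the groups did not overlap. With it as a covariate 1385 genes passed, 950 of them among the 1302 that passed without it. Leaving out either SEZ_Prom array leaves 1 array in that group, so calls fall whichever is left out. None of the 1302 called genes changed sign in either fit. Without SEZ_GFPprom replicate 1, 855 genes passed. Where a gene is said below to miss the threshold without SEZ_Prom replicate 1 or 2, it did so without at least 1 of them. Such a miss goes with the loss of replication and does not single out an array. The range of adjusted p covers the fits in which a gene missed the threshold. Probe sets of shared sequence are those whose names mark a match to several transcripts. Leaving them out reads a gene by another probe set only where its brightest one is of this kind. It also changes the genes tested and so the adjusted p of every gene.

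**Figure D1:**
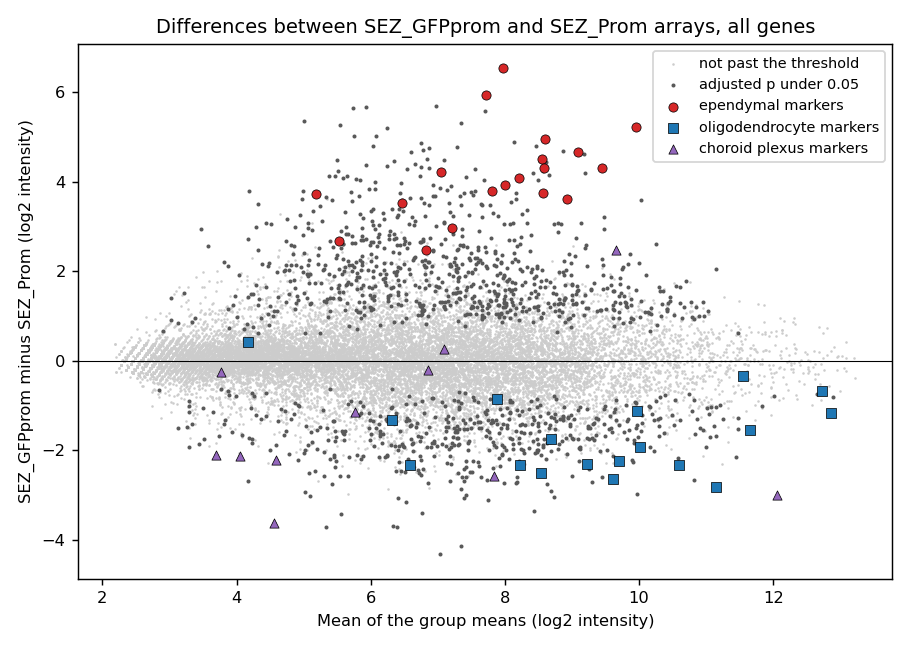
Difference between SEZ_GFPprom (n = 4) and SEZ_Prom (n = 2) in log2 intensity against the mean of the group means, with 1 point for each of 18193 genes. All 19 ependymal markers lie above 0, between 2.48 and 6.54, and 17 of 18 oligodendrocyte markers lie below it.

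Of the genes of the sort markers, Cd24a passed and Prom1 and Gfap did not. Prom1, which encodes prominin, had intensities of 426, 664, 441 and 514 in SEZ_GFPprom and 194 and 345 in SEZ_Prom, a log2 difference of 0.96 ± 0.47 (SE) that did not pass (adjusted p = 0.262). All SEZ_GFPprom values lay above both SEZ_Prom values. The mouse Gfap gene read 845, 588, 142 and 366 against 143 and 279, so the groups overlapped (adjusted p = 0.349). Cd24a, a surface protein of ependymal cells and neuroblasts, was 3.06-fold higher, at 1641, 1117, 990 and 1254 against 609 and 264 (adjusted p = 0.0314). All 3 of its probe sets passed. Cd24a missed the threshold without SEZ_Prom replicate 2 (adjusted p = 0.309), and also without SEZ_GFPprom replicate 1, 2 or 4 or under another alternative (adjusted p = 0.0521 to 0.0805). The transgene itself was not analysed here.

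All 19 measured ependymal markers were higher in SEZ_GFPprom cells, with a median log2 difference of 4.09, beside 0.04 over all genes. Foxj1, the forkhead factor of motile cilia, read 799, 975, 575 and 1086 in SEZ_GFPprom and 69 and 52 in SEZ_Prom, a log2 difference of 3.80 ± 0.31 (SE, adjusted p = 5.63e-05). Every SEZ_GFPprom array was far above both SEZ_Prom arrays. Ccdc153, a coiled-coil protein used as an ependymal marker, was at 8308, 5670, 4501 and 6347 against 110 and 235, a 37.7-fold difference (adjusted p = 5.5e-05). Tmem212, a membrane protein of ciliated cells, was at 2631, 1812, 1556 and 2915 against 70 and 68, a 31.3-fold difference (adjusted p = 5.63e-05).

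Ependymal genes that are no part of the cilium differed in the same direction. Of these, Hdc, Mia, Tm4sf1 and Rarres2 lie outside the rule for naming genes that is given below. Hdc, the enzyme that makes histamine, read 2322, 1763, 1050 and 2040 in SEZ_GFPprom and 63 and 118 in SEZ_Prom (log2 difference 4.32 ± 0.46, SE, adjusted p = 0.000242). Mia, a secreted protein, was 22.7-fold higher, with 2044, 1735, 1090 and 2669 against 76 and 82 (adjusted p = 0.000185). Tm4sf1, a membrane protein, was 17.1-fold higher (adjusted p = 9.66e-05). Rarres2, the secreted chemoattractant chemerin, was 19.7-fold higher by its brightest probe set (adjusted p = 0.000183), and 2 of its 3 probe sets passed; without probe sets of shared sequence its difference did not pass (adjusted p = 0.541). Meig1 read 164, 126, 90 and 166 against 10 and 10 (13.3-fold higher, adjusted p = 2.04e-05). The summed intensity of the 19 markers was 21050 to 37439 over the SEZ_GFPprom arrays and 1078 and 1730 in the SEZ_Prom arrays. Within SEZ_GFPprom, 16 of the 19 were lowest on replicate 3.

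**Figure D2:**
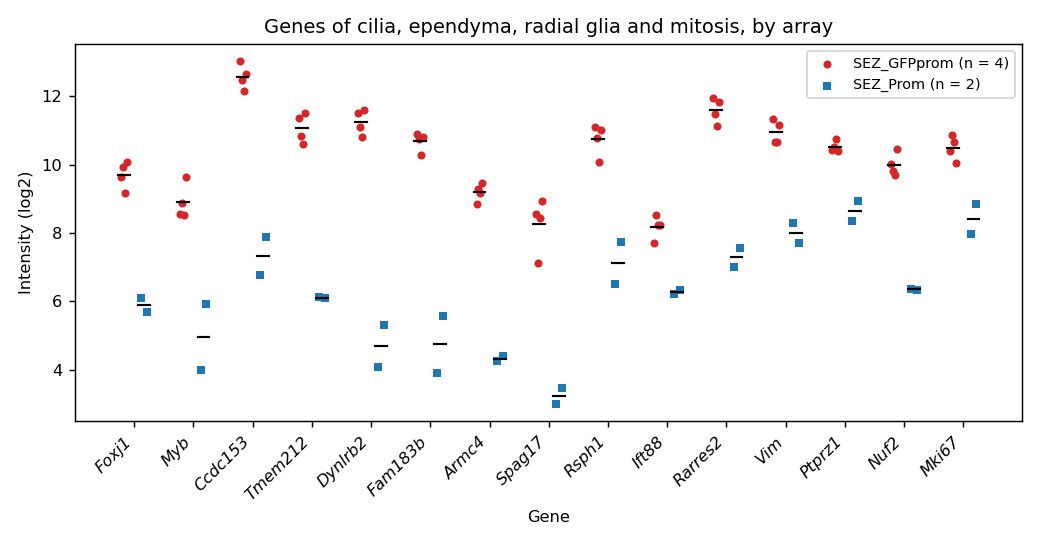
Log2 intensity of 15 genes on each SEZ_GFPprom array (red circles, n = 4) and each SEZ_Prom array (blue squares, n = 2), with group means as bars. The circles lie above the squares for every gene shown, although Mki67 did not pass the test (adjusted p = 0.0785).

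Of 16 regulators of multiciliated cells, 5 were higher (background 4.40%) and none was lower, with a median log2 difference of 0.34. Beside Foxj1 these were Myb, a factor of early multiciliated differentiation, Deup1, a scaffold of centriole amplification, Trp73, a factor upstream of Foxj1, and Rfx4. Myb read 379, 470, 366 and 796 in SEZ_GFPprom and 16 and 61 in SEZ_Prom (15.3-fold higher, adjusted p = 0.00114), with no overlap. Deup1 read 128, 102, 74 and 126 against 28 and 17 (4.81-fold, adjusted p = 0.00518), and Trp73 read 43, 43, 44 and 39 against 16 and 18 (2.49-fold, adjusted p = 0.0086). Rfx2 and Rfx3, which act on X-boxes in ciliated cells, differed by 0.25 ± 0.39 and 0.46 ± 0.24 on the log2 scale (SE) and did not pass (adjusted p = 0.778 and 0.305). Ccno and Cdc20b, genes of centriole amplification, lay at 22 to 47 and 6 to 9 in SEZ_GFPprom and at 26 to 27 and 6 to 7 in SEZ_Prom. They did not pass either (limma, adjusted p = 0.717 and 0.518). Rfx2, Rfx3, Ccno and Cdc20b lie outside the rule for naming genes that is given below. Log2 differences of the 11 regulators that did not pass ranged from -0.12 to 2.16. Leaving out SEZ_Prom replicate 1 or 2 ended the call of Deup1, Trp73 and Rfx4 (adjusted p = 0.0554 to 0.185), and that of Rfx4 under another alternative (adjusted p = 0.0582 to 0.083).

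Among 60 motile cilium components, 50 were higher (background 4.40%), none was lower and 59 differences were positive, with a median of 3.03 on the log2 scale. Members described in this and the next paragraphs were chosen by their place in the axoneme, after their values were seen. Dynlrb2, a light chain of cytoplasmic dynein, had the largest difference of all genes tested: 2883, 2175, 1783 and 3100 in SEZ_GFPprom against 17 and 40 in SEZ_Prom, 93.1-fold (log2 difference 6.54 ± 0.59, SE, adjusted p = 8.95e-05). Of the dynein arms, the outer arm heavy chain Dnah9 was 9.30-fold higher (245, 235, 295 and 473 against 28 and 37, adjusted p = 0.000165). The intermediate chains Dnaic1 and Dnaic2 were 3.92-fold and 22.3-fold higher (adjusted p = 0.00494 and 0.00103). Armc4, which docks outer arms, was 29.2-fold higher, with values of 457 to 704 against 19 and 21 (adjusted p = 1.71e-05). The inner arm chains Dnah6 and Dnali1 were 16.5-fold and 18.6-fold higher (adjusted p = 0.000122 and 0.000473). Dnah5, another outer arm heavy chain, was dim at 12 to 22 in SEZ_GFPprom and 9 and 10 in SEZ_Prom, and did not pass (adjusted p = 0.114). Zmynd10 and Dnaaf1, cytoplasmic factors that assemble dynein arms, were 9.60-fold and 5.31-fold higher (adjusted p = 0.000373 and 0.00976), while Lrrc6, another such factor, did not pass (22 to 225 against 11 and 14, adjusted p = 0.0555). Without SEZ_Prom replicate 1, Dnaic1 and Dnaaf1 missed the threshold (adjusted p = 0.0837 and 0.118). Dnaic2 did not pass once shared-sequence probe sets were left out (adjusted p = 0.942).

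Genes of the radial spokes, central pair and nexin links followed. The spoke head proteins Rsph1 and Rsph4a were 12.2-fold and 11.6-fold higher in SEZ_GFPprom (adjusted p = 0.00149 and 0.000516), with Rsph1 at 2171, 1751, 1081 and 2047 against 92 and 212. Spag17, a central pair protein, read 373, 140, 344 and 493 against 8 and 11, which is 29.3-fold with values under 10 set to 10 (adjusted p = 0.0013). Spef2, also of the central pair, was 16.8-fold higher (adjusted p = 0.000202). Hydin, a large central pair protein, read 121, 88, 54 and 144 against 48 and 35 and did not pass (adjusted p = 0.21), nor did Spag6l (adjusted p = 0.0948). Drc1, a nexin link subunit, was 5.30-fold higher, at 701, 632, 536 and 736 against 142 and 105 (adjusted p = 0.000672). Ccdc39 and Ccdc40, which set the spacing of the repeats along a doublet, were 6.26-fold and 5.74-fold higher (adjusted p = 0.00756 and 0.0273). Ccdc39 and Ccdc40 missed the threshold without SEZ_Prom replicate 1 or 2 (adjusted p = 0.0884 to 0.232), and also without SEZ_GFPprom replicate 1, 2 or 4 or under another alternative (adjusted p = 0.0524 to 0.119). With shared-sequence probe sets left out, Ccdc39 did not pass (adjusted p = 0.58).

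Enzymes and inner proteins of the axoneme were also higher. Ak7, an adenylate kinase of cilia, read 3077, 2797, 2068 and 3224 in SEZ_GFPprom and 69 and 171 in SEZ_Prom (25.3-fold, adjusted p = 2.7e-05). Cfap161 read 943, 608, 825 and 1053 against 44 and 59 (16.5-fold higher, adjusted p = 5.5e-05). Tekt1 and Tekt4, tektin filaments of the doublets, were 7.78-fold and 6.39-fold higher (adjusted p = 0.00108 and 0.00533), and Tekt2 did not pass (adjusted p = 0.0504). Of the genes with an X-box shown above, Iqca was 48.3-fold, Enkur 21.2-fold, Cfap45 11.2-fold and Cfap61 2.43-fold higher (adjusted p = 6.04e-05, 0.000106, 0.000802 and 0.0124). Spag16 and Ccdc151 were higher by log2 differences of 3.46 and 3.49 with intensities under 10 set to 10 (adjusted p = 0.0411 and 0.00758). The summed intensity of the 60 components was 20608 to 33884 in SEZ_GFPprom and 2185 and 2638 in SEZ_Prom, and 31 of the 60 were lowest on SEZ_GFPprom replicate 3 and 21 on replicate 2. Leaving out SEZ_Prom replicate 1 or 2 ended the call of Tekt4, Cfap61 and Spag16 (adjusted p = 0.0807 to 0.173), and that of Cfap61 under another alternative (adjusted p = 0.0727).

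Intraflagellar transport carries axoneme parts in both motile and primary cilia. Of 39 genes of this transport, the BBSome and the basal body, 15 were higher (background 4.40%) and none was lower, with a median log2 difference of 1.2. Ift88, of the core of the outward-moving train, read 207, 372, 303 and 302 in SEZ_GFPprom and 75 and 80 in SEZ_Prom (3.74-fold, adjusted p = 0.00823). Ift122, of the returning train, was 6.12-fold higher (796, 730, 742 and 687 against 71 and 205, adjusted p = 0.00152). Ift172, also of the outward train, read 395, 463, 314 and 376 against 72 and 119 (4.14-fold, adjusted p = 0.00288), and Ift43, of the returning train, was 4.11-fold higher (adjusted p = 0.00667). Ift20 did not pass (229 to 318 against 196 and 211, adjusted p = 0.556). Ttc26, an adaptor of the train, was 7.53-fold higher (adjusted p = 0.0044), and B9d1, of the transition zone at the base of the cilium, was 4.72-fold higher (adjusted p = 0.00354). The kinesin subunits that drive the outward train did not pass: Kif3a read 443 to 675 against 619 and 638, and Kifap3 read 339 to 753 against 460 and 492 (adjusted p = 0.81 and 0.717). Without SEZ_Prom replicate 1 or 2, Ift88, Ift172, Ift43, Ttc26 and B9d1 missed the threshold (adjusted p = 0.0583 to 0.106), and so did Ift43 under another alternative (adjusted p = 0.0531). With shared-sequence probe sets left out, Ift122 did not pass (adjusted p = 0.234). The count was 8 in a fit of the 6 arrays alone, 2 without SEZ_Prom replicate 1, 7 without replicate 2 and 12 without SEZ_GFPprom replicate 1.

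The 15 genes with the largest positive differences held further genes of ciliated cells. Fam183b, a protein of motile cilia, was 61.3-fold higher (1896, 1731, 1236 and 1802 against 15 and 48, adjusted p = 0.000168). Ttc29, an axonemal protein, read 563, 366, 317 and 544 against 9 and 8, and Cfap299 read 514, 308, 220 and 588 against 8 and 7; with values under 10 set to 10 they were 43.4-fold and 37.8-fold higher (adjusted p = 5.49e-05 and 0.000287). Frmpd2, a scaffold protein with a FERM domain, was 51.6-fold higher (adjusted p = 1.71e-05), Morn5 36.7-fold (adjusted p = 0.000524) and Fam166c 29.7-fold (adjusted p = 0.000221). Genes of other roles were Slc26a3, an anion exchanger, at 569, 235, 347 and 490 against 10 and 14 (32.8-fold, adjusted p = 8.3e-05), and Rassf9, which was higher by a log2 difference of 4.86 with intensities under 10 set to 10 (adjusted p = 0.000482). Ifitm3, a membrane protein that restricts virus entry, read 2261, 1367, 1539 and 2501 against 85 and 52 (27.9-fold, adjusted p = 0.000564). Among 22 measured genes of the interferon response and antigen presentation, Ifitm3 alone passed, a count near the background of 4.40%. The median difference of that list was -0.06, and the class II genes H2-Aa and H2-Ab1 did not pass (limma, adjusted p = 0.107 and 0.212). Fam166c did not pass once shared-sequence probe sets were left out (adjusted p = 0.385).

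**Figure D3:**
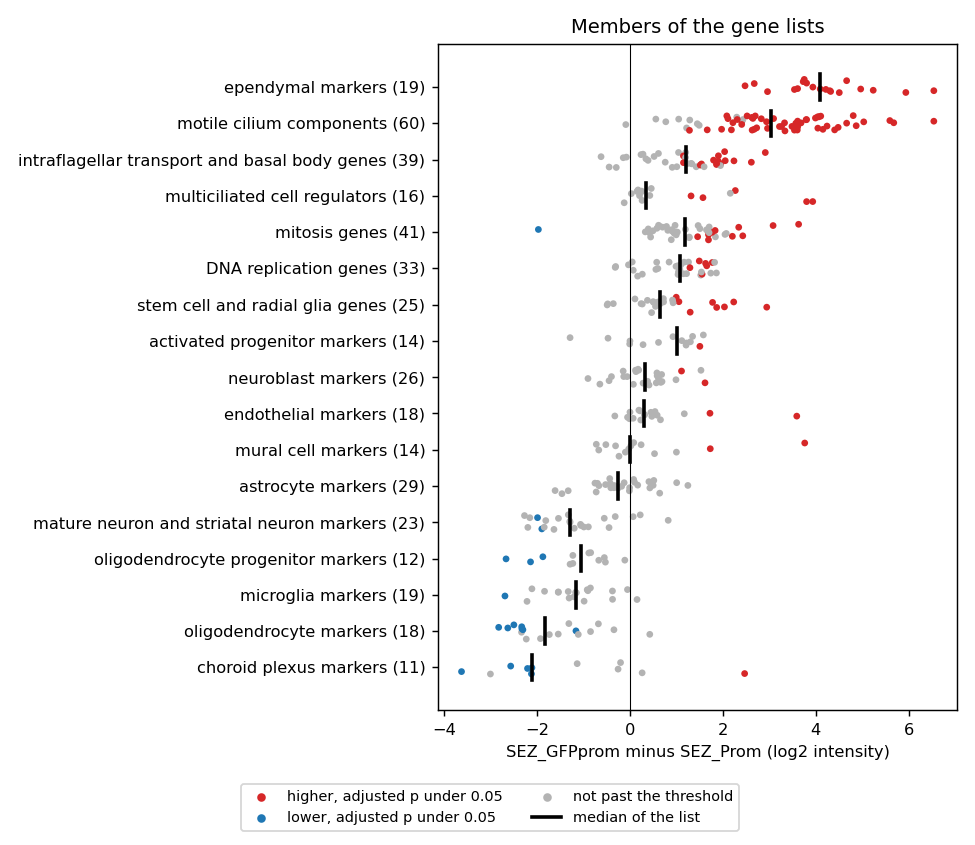
Log2 difference between SEZ_GFPprom and SEZ_Prom for each measured member of 17 gene lists (number in brackets), coloured by the test, with the median of each list as a bar. Ependymal markers have a median of 4.09, astrocyte markers of -0.26, oligodendrocyte markers of -1.83 and choroid plexus markers of -2.11.

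Of 25 genes of neural stem cells and radial glia, 8 were higher and none was lower (background 4.40% and 2.76%), with a median log2 difference of 0.65. Vim, the intermediate filament vimentin of radial glia and ependyma, read 2590, 1607, 1631 and 2257 in SEZ_GFPprom and 315 and 210 in SEZ_Prom, 7.69-fold higher with all 3 probe sets past the threshold (adjusted p = 0.000802). Ptprz1, a receptor phosphatase of glial progenitors, read 1362, 1460, 1714 and 1338 against 328 and 490 (3.65-fold, adjusted p = 0.000728). Thbs4, a thrombospondin of SEZ astrocytes, was 4.70-fold higher (1212, 911, 934 and 1077 against 150 and 318, adjusted p = 0.00714). These arrays did not overlap between the groups. Notch2 was 3.43-fold higher (adjusted p = 0.00839), Veph1 3.88-fold with values under 10 set to 10 (adjusted p = 0.0276) and Id3, an inhibitor of differentiation factors, 2.46-fold (adjusted p = 0.0258). Sox2, a factor of neural progenitors, was 1.99-fold higher (642, 609, 705 and 573 against 380 and 263, adjusted p = 0.0252). Nr2e1, which maintains adult neural stem cells, did not pass (102, 61, 54 and 40 against 39 and 38, adjusted p = 0.501). Leaving out SEZ_Prom replicate 1 or 2 ended the call of Thbs4, Notch2, Veph1, Id3 and Sox2 (adjusted p = 0.0559 to 0.243), and that of Veph1, Id3 and Sox2 without SEZ_GFPprom replicate 1 or 2 or under another alternative (adjusted p = 0.0563 to 0.0823). The list's count was 2 without SEZ_Prom replicate 1, 5 without replicate 2 and 5 with the replicate number as a block.

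None of 29 astrocyte markers passed in either direction, beside a background of 4.40% higher and 2.76% lower over all genes. Their median log2 difference was -0.26. Aqp4, the water channel of astrocytes and ependyma, read 435, 332, 302 and 578 in SEZ_GFPprom and 345 and 226 in SEZ_Prom (adjusted p = 0.584). Aldh1l1, a folate enzyme of astrocytes, read 351, 338, 245 and 344 against 511 and 358 (adjusted p = 0.659). The groups overlapped for Aqp4, and for Aldh1l1 the closest arrays nearly met. The summed intensity of the list was 49156 to 54218 against 50974 and 55852. Both sorts held RNA of these genes, and no difference was detectable with these arrays.

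Genes of the cell cycle were mostly above their SEZ_Prom level. Of 33 DNA replication genes 6 were higher (background 4.40%) and none lower, with 30 positive differences and a median of 1.07 on the log2 scale, and of 41 mitosis genes 10 were higher and 1 lower (background 4.40% and 2.76%), with 40 positive differences and a median of 1.19. Mcm6, a subunit of the replicative helicase, read 562, 518, 530 and 307 in SEZ_GFPprom and 198 and 139 in SEZ_Prom (2.81-fold, adjusted p = 0.00615). Gins2, which joins that helicase, was 3.14-fold higher (adjusted p = 0.00992). The helicase subunits Mcm4 and Mcm7 were 3.41-fold and 2.93-fold higher (adjusted p = 0.013 and 0.0227) and Rrm1, of nucleotide synthesis, 2.45-fold (adjusted p = 0.0211). Their partners Mcm2 and Mcm3 did not pass (adjusted p = 0.0638 and 0.136). Spc24, a kinetochore protein, read 140, 139, 123 and 102 against 23 and 32 (4.61-fold, adjusted p = 0.00043), and Ube2c, which drives exit from mitosis, read 577, 572, 530 and 362 against 134 and 148 (3.56-fold, adjusted p = 0.00747). The cell division genes Cdca3 and Cenpa were 5.07-fold and 3.22-fold higher (adjusted p = 0.00483 and 0.0113). Cenpa turned to a log2 difference of -0.77 once shared-sequence probe sets were left out (adjusted p = 0.358). Mki67, the proliferation marker Ki-67, read 1344, 1859, 1607 and 1058 against 251 and 464, a log2 difference of 2.07 ± 0.64 (SE) that did not pass (adjusted p = 0.0785), and Top2a did not pass either (adjusted p = 0.0984). Without SEZ_Prom replicate 1 or 2, Mcm6, Gins2, Mcm4, Mcm7, Rrm1, Ube2c, Cdca3 and Cenpa missed the threshold (adjusted p = 0.0569 to 0.213), and so did Mcm6, Gins2, Mcm7, Rrm1 and Cenpa without SEZ_GFPprom replicate 1 or under another alternative (adjusted p = 0.053 to 0.448). Mcm6, Gins2, Mcm4, Cdca3 and Cenpa did not pass once shared-sequence probe sets were left out (adjusted p = 0.0573 to 0.801).

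A pair of mitosis genes stood apart from the rest of that list. Nuf2, of the kinetochore, had the largest difference of the list, at 1028, 895, 824 and 1399 in SEZ_GFPprom and 83 and 81 in SEZ_Prom (12.4-fold, adjusted p = 2.7e-05). Its log2 level was 8.54 in DIEC_GFP, where the median member of the list was at 4.56. Anln, an actin-binding protein of cell division that myelinating oligodendrocytes also make, was the only member lower, at 206, 298, 226 and 182 against 841 and 919 (3.92-fold lower, adjusted p = 0.00756), and missed the threshold without SEZ_Prom replicate 1 or 2 (adjusted p = 0.0689 and 0.0753). The count of higher mitosis genes was 4 without SEZ_Prom replicate 1, 2 without replicate 2, 5 with the replicate number as a block and 3 without probe sets of shared sequence. On the SEZ_GFPprom arrays, 34 of the 41 mitosis genes were lowest on replicate 4 and 21 were highest on replicate 3. Of the G1 regulators, 3 of 20 were higher (background 4.40%). They were the inhibitors Cdkn1b (154, 144, 169 and 129 against 32 and 41, 4.09-fold, adjusted p = 0.00514) and Cdkn1a (2.48-fold, adjusted p = 0.0372), and the kinase Cdk6 (2.84-fold, adjusted p = 0.0359). The cyclins Ccnd1 and Ccnd2 did not pass (adjusted p = 0.467 and 0.196). Cdkn1b, Cdkn1a and Cdk6 missed the threshold without SEZ_Prom replicate 1 or 2 (adjusted p = 0.0782 to 0.305), and so did Cdkn1a and Cdk6 without SEZ_GFPprom replicate 1, 2, 3 or 4 or under another alternative (adjusted p = 0.0552 to 0.21).

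Markers of activated progenitors and neuroblasts gave 1 and 2 calls, beside a background of 4.40% higher and 2.76% lower over all genes. Among 14 activated progenitor markers Cdk6 alone was higher, with a median log2 difference of 1.02 over the list. Egfr, the receptor that marks activated stem cells, read 373, 313, 420 and 224 in SEZ_GFPprom and 174 and 113 in SEZ_Prom (adjusted p = 0.0998), and the Notch ligand Dll1 read 102, 124, 221 and 120 against 196 and 180 (adjusted p = 0.586). Of 26 neuroblast markers 2 were higher, Cd24a and Ncam1, with a median of 0.33. Dcx, a microtubule protein of migrating neuroblasts, read 1023, 970, 1307 and 723 against 591 and 197 and did not pass (adjusted p = 0.0834), nor did the tubulin Tubb3 (150 to 210 against 214 and 93, adjusted p = 0.709). Ncam1, an adhesion molecule, was 2.16-fold higher by its brightest probe set (adjusted p = 0.0341), while 2 of its 7 probe sets were lower, and its difference turned to -1.41 on the log2 scale without probe sets of shared sequence (adjusted p = 0.436). It missed the threshold without SEZ_Prom replicate 1 or 2 (adjusted p = 0.052 and 0.309), without SEZ_GFPprom replicate 1, 2 or 3 (adjusted p = 0.0549 to 0.0664), with the replicate number as a block (adjusted p = 0.12), with the amplification covariate (adjusted p = 0.0964) and in the fit of the 6 arrays alone (adjusted p = 0.0859). None of 21 neurogenic and interneuron transcription factors passed, and Dlx1 and Dlx2 overlapped between the groups (adjusted p = 0.879 and 0.5). None of 10 telencephalic transcription factors passed, with Six3 and Lhx2 at log2 differences of 0.57 and 0.05 (adjusted p = 0.286 and 0.969).

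Few members of the Notch, Wnt, and EGF and FGF lists passed, beside a background of 4.40% higher and 2.76% lower. The BMP and Hedgehog lists, with 4 of 24 and 3 of 13 genes called, lay above it. Bambi, a decoy receptor that dampens BMP and related signals, read 391, 226, 241 and 235 in SEZ_GFPprom and 50 and 36 in SEZ_Prom (6.27-fold higher, adjusted p = 0.000265), and Bmp6, a BMP ligand, was 3.99-fold higher (adjusted p = 0.0155). With Id3 and the inhibitor Chrd (1.55-fold, adjusted p = 0.0433) they were 4 of 24 genes of this pathway, whose median difference was 0.00; the ligands Bmp2 and Bmp4 lay at 11 to 21 and 18 to 33 in SEZ_GFPprom and at 25 to 56 and 31 to 41 in SEZ_Prom (adjusted p = 0.14 and 0.51). Gas1, a co-receptor for Hedgehog, read 1055, 860, 822 and 959 against 254 and 315 (3.25-fold higher, adjusted p = 0.000257), and Boc, another, was 2.48-fold higher (adjusted p = 0.0258). Hhip, which binds and sequesters Hedgehog, was 8.85-fold lower, at 22, 65, 41 and 16 against 277 and 274 (adjusted p = 0.0306). These were the 3 calls among 13 Hedgehog pathway genes, and Ptch1, a target of the pathway, did not pass (534 to 751 against 530 and 616, adjusted p = 0.831), while the ligand Shh was dim at 13 to 16 against 13 and 14 (adjusted p = 0.914). Notch2 was the only call among 23 Notch genes, and Notch1 did not pass (adjusted p = 0.0579). The Wnt receptors Fzd8 and Fzd5 were 4.08-fold and 4.13-fold higher (adjusted p = 0.00598 and 0.0276), 2 of 26 Wnt genes, and the EGF family ligand Tgfa was 3.28-fold lower (adjusted p = 0.0241), 1 of 24 EGF and FGF genes. The ligands Wnt5a (33, 49, 48 and 41 against 18 and 13) and Wnt7a (114 to 315 against 110 and 215) and the receptor Erbb2 (21 to 42 against 17 and 31) did not pass (adjusted p = 0.112, 0.882 and 0.467). Leaving out SEZ_Prom replicate 1 or 2 ended the call of Bmp6, Chrd, Boc, Hhip, Fzd8, Fzd5 and Tgfa (adjusted p = 0.0973 to 0.254), and that of Chrd, Boc, Hhip, Fzd8, Fzd5 and Tgfa without SEZ_GFPprom replicate 1, 2, 3 or 4 or under another alternative (adjusted p = 0.0504 to 0.198).

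Of 25 junction and adhesion genes, 4 were higher (background 4.40%): Dsg2, Cdh4, Ocln and Ncam1. Dsg2, a desmosomal cadherin, read 715, 531, 309 and 759 in SEZ_GFPprom and 22 and 26 in SEZ_Prom (22.8-fold, adjusted p = 8.46e-05). Cdh4, a classical cadherin, was 4.00-fold higher (adjusted p = 0.0036). Ocln, of tight junctions, read 134, 131, 28 and 242 against 19 and 17 (adjusted p = 0.0434), with replicate 3 near the SEZ_Prom level. Cdh1 was dim at 5 to 6 in both groups, and Cdh2, the neural cadherin, read 103 to 301 against 217 and 152 (adjusted p = 0.891 and 0.928). Of 34 extracellular matrix genes 4 were higher (background 4.40%), namely Thbs4, Gpc4, a cell-surface proteoglycan (4.63-fold, adjusted p = 0.00401), Col4a2, a basement membrane collagen (4.75-fold, adjusted p = 0.00591), and Vcan, a large proteoglycan (2.59-fold, adjusted p = 0.0433). The matrix proteins Tnc and Dcn read 37 to 81 and 25 to 49 in SEZ_GFPprom and 27 to 29 and 21 to 22 in SEZ_Prom (adjusted p = 0.227 and 0.479). Counts were near the background among 28 axon guidance genes (4.40% higher, 2.76% lower over all genes): Efnb1 and Epha5 were higher (2.33-fold and 2.51-fold, adjusted p = 0.00784 and 0.0378) and the netrin receptor Unc5b was lower (3.62-fold lower, adjusted p = 0.0442), and the dim receptors Robo1 and Robo2 did not pass (adjusted p = 0.681 and 0.571). Without SEZ_Prom replicate 1 or 2, Ocln, Gpc4, Col4a2, Vcan, Efnb1, Epha5 and Unc5b missed the threshold (adjusted p = 0.0513 to 0.272), and so did Ocln, Vcan, Epha5 and Unc5b without SEZ_GFPprom replicate 1, 2, 3 or 4 or under another alternative (adjusted p = 0.0504 to 0.779).

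Of 18 oligodendrocyte markers, 7 were lower in SEZ_GFPprom cells (background 2.76%) and none was higher, with a median log2 difference of -1.83. Mbp, a main protein of myelin, read 5232, 5342, 4147 and 5175 in SEZ_GFPprom and 11327 and 10834 in SEZ_Prom (2.24-fold lower, adjusted p = 0.00314), and 5 of its 8 probe sets passed. Mobp, another myelin protein, read 781, 868, 772 and 983 against 6295 and 5727 (7.09-fold lower, adjusted p = 0.0151). Fa2h, which makes hydroxylated myelin lipids, was 5.65-fold lower (133, 192, 150 and 157 against 959 and 817, adjusted p = 0.0107), and Ermn, a cytoskeletal protein of oligodendrocytes, was 6.19-fold lower (adjusted p = 0.0195). In each of these genes both SEZ_Prom arrays lay above all SEZ_GFPprom arrays. Mog, a myelin surface protein, was 5.04-fold lower in level but did not pass (adjusted p = 0.14). The transcription factor Nkx6-2 was 5.03-fold lower (adjusted p = 0.0234). The summed intensity of the list was 13979 to 23533 in SEZ_GFPprom and 48549 and 51166 in SEZ_Prom. Mobp, Fa2h, Ermn and Nkx6-2 missed the threshold without SEZ_Prom replicate 1 or 2 (adjusted p = 0.0707 to 0.199), and so did Nkx6-2 under another alternative (adjusted p = 0.0691 to 0.0845). The list's count was 1 without SEZ_Prom replicate 1, 1 without replicate 2 and 4 with the replicate number as a block.

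Oligodendrocyte progenitor markers included 3 of 12 that were lower (background 2.76%), and all 12 differences were negative. Olig1, the lineage factor of oligodendrocytes, read 1008, 974, 368 and 738 in SEZ_GFPprom and 4113 and 5065 in SEZ_Prom (6.35-fold lower, adjusted p = 0.00917). Nkx2-2, a factor of their differentiation, and Matn4, a matrix protein, were 4.41-fold and 3.67-fold lower (adjusted p = 0.0259 and 0.0167). Pdgfra, the receptor that defines the progenitors, read 203, 310, 245 and 265 against 381 and 573 and did not pass (adjusted p = 0.401), nor did the proteoglycan Cspg4 (adjusted p = 0.252). Gpr37, a receptor of myelinating oligodendrocytes, had the largest negative difference of all genes tested: 38, 30, 27 and 24 against 579 and 597, 20.1-fold lower (log2 difference -4.33 ± 0.62, SE, adjusted p = 0.00173). S1pr5, a sphingosine phosphate receptor of the same lineage, was 8.65-fold lower (adjusted p = 0.0328). Leaving out SEZ_Prom replicate 1 or 2 ended the call of Olig1, Nkx2-2, Matn4 and S1pr5 (adjusted p = 0.0706 to 0.2), and that of Nkx2-2, Matn4 and S1pr5 without SEZ_GFPprom replicate 1, 3 or 4 or under another alternative (adjusted p = 0.0531 to 0.106).

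Of 11 choroid plexus markers, 5 were lower (background 2.76%) and 1 was higher, with a median log2 difference of -2.11, or -1.43 with values under 10 set to 10. Kl, the anti-ageing protein Klotho, read 7, 6, 7 and 7 in SEZ_GFPprom and 96 and 72 in SEZ_Prom, 8.31-fold lower with values under 10 set to 10 (adjusted p = 8.49e-05). Aqp1, the water channel of the plexus, read 12, 11, 11 and 11 against 48 and 56 (4.61-fold lower, adjusted p = 0.00187). Kcne2, a potassium channel subunit, and Slc4a5, a bicarbonate transporter, lay at 6 to 10 in SEZ_GFPprom and at 25 to 37 in SEZ_Prom (adjusted p = 0.000151 and 7.76e-05). Clic6 was 5.93-fold lower (adjusted p = 0.0137). Ttr, the thyroid hormone carrier and most abundant plexus transcript, read 1421, 4322, 117 and 7169 against 11943 and 12223; its spread within SEZ_GFPprom was wide and it did not pass (adjusted p = 0.296). Kcnj13, a potassium channel, and Car12, a carbonic anhydrase, which the plexus also expresses, had log2 differences of -4.14 and -3.70, with Car12 at 26, 18, 22 and 24 against 280 and 299 (adjusted p = 0.00801 and 0.00132). The member that was higher, Calml4, a calmodulin-like protein, read 2324, 2151, 992 and 2589 against 223 and 525 (5.53-fold, adjusted p = 0.0374). Without SEZ_Prom replicate 1 or 2, Clic6, Kcnj13 and Calml4 missed the threshold (adjusted p = 0.0633 to 0.312), and so did Calml4 without SEZ_GFPprom replicate 1, 2 or 4 or under another alternative (adjusted p = 0.0507 to 0.0839). Without the dimmest 25% of genes, 1 of the list's members was lower.

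**Figure D4:**
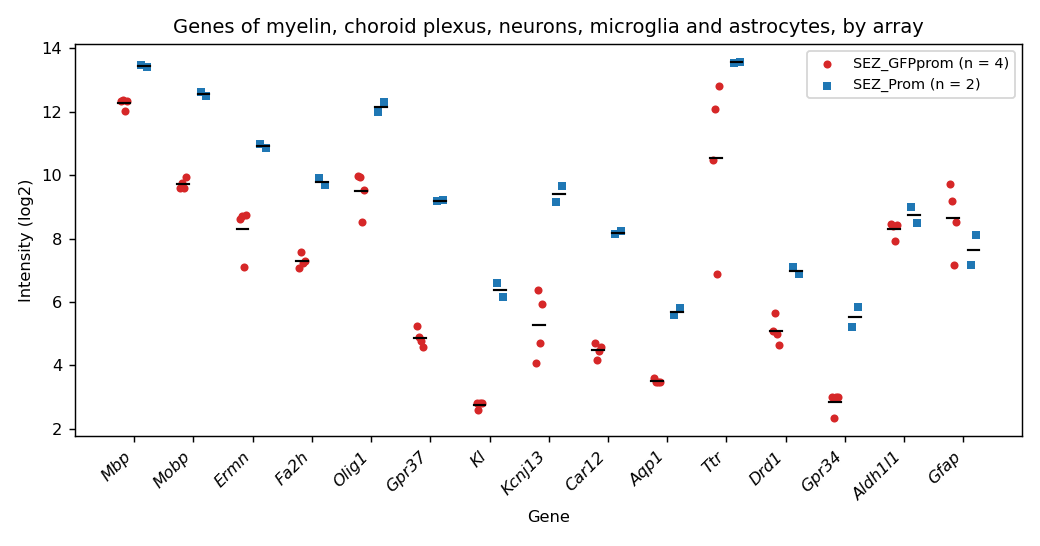
Log2 intensity of 15 genes on each SEZ_GFPprom array (red circles, n = 4) and each SEZ_Prom array (blue squares, n = 2), with group means as bars. For Gpr37 the circles lie at 24 to 38 and the squares at 579 and 597 on the linear scale, while the circles of Ttr span 117 to 7169.

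Of 23 neuron and striatal neuron markers, 2 were lower (background 2.76%) and none was higher, with a median log2 difference of -1.29 and 3 positive differences. Drd1, a dopamine receptor of striatal neurons, read 34, 50, 32 and 25 in SEZ_GFPprom and 136 and 119 in SEZ_Prom (3.73-fold lower, adjusted p = 0.00716), and Ppp1r1b, the striatal phosphatase inhibitor DARPP-32, read 117, 154, 281 and 215 against 921 and 565 (3.97-fold lower, adjusted p = 0.013). Snap25, of synaptic vesicle fusion, did not pass (100, 206, 358 and 225 against 1269 and 676, adjusted p = 0.276), nor did the vesicle protein Syt1 (adjusted p = 0.29). Within SEZ_GFPprom, 20 of the 23 were lowest on replicate 1, where the list summed to 5566, beside 10013 to 13721 on the other SEZ_GFPprom arrays and 24070 and 23357 in SEZ_Prom. Of 23 transmitter receptors and transporters, 2 were lower (background 2.76%). The glutamate receptors Gria1 and Grm5 were 4.13-fold and 4.27-fold lower (adjusted p = 0.0458 and 0.0435). The GABA-making enzymes Gad1 and Gad2 did not pass (adjusted p = 0.688 and 0.203). Among 19 microglia markers Gpr34, a receptor of microglia, alone was lower (5 to 8 against 37 and 57, adjusted p = 0.0196). With values under 10 set to 10 its difference was 4.59-fold and did not pass (adjusted p = 0.0707). Cx3cr1 and Aif1, which microglia express, did not pass (adjusted p = 0.163 and 0.309). The median of the microglia list was -1.17. Drd1, Ppp1r1b, Gria1, Grm5 and Gpr34 missed the threshold without SEZ_Prom replicate 1 or 2 (adjusted p = 0.0523 to 0.292), and so did Gria1, Grm5 and Gpr34 without SEZ_GFPprom replicate 1, 2, 3 or 4 or under another alternative (adjusted p = 0.0519 to 0.117). With shared-sequence probe sets left out, Gria1 kept the same log2 difference and did not pass (limma, adjusted p = 0.0517).

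The remaining genes with the largest negative differences had mixed roles. Il33, an alarmin that glia make, read 134, 59, 103 and 168 in SEZ_GFPprom and 1068 and 1136 in SEZ_Prom (10.2-fold lower, adjusted p = 0.00605). Tlcd3a was 7.95-fold lower (adjusted p = 0.00483), and Klhl4 11.1-fold lower with values under 10 set to 10 (adjusted p = 0.031). Tnfaip3, an inhibitor of NF-κB signalling, was 8.35-fold lower (86, 30, 28 and 160 against 623 and 380, adjusted p = 0.0398), and Rasgrp3, an exchange factor for Ras, 10.6-fold lower (adjusted p = 0.0363), which with values under 10 set to 10 was 10.3-fold and did not pass (adjusted p = 0.0642). Rab40b, Ldlrad4, Cpm, a membrane carboxypeptidase, and Dock10 completed the 15, with log2 differences of -3.03 to -3.70 (adjusted p = 0.0349, 0.0363, 0.0419 and 0.0408). In the retinoic acid list, 2 of 17 genes were lower (background 2.76%). They were the synthetic enzyme Aldh1a1 (9, 11, 9 and 23 against 67 and 142, adjusted p = 0.0271) and the receptor Rxrg (127, 288, 273 and 253 against 830 and 731, adjusted p = 0.0434). The enzyme Aldh1a2 lay at 6 to 7 against 10 and 7 (adjusted p = 0.278). Leaving out SEZ_Prom replicate 1 or 2 ended the call of Il33, Tlcd3a, Klhl4, Tnfaip3, Rasgrp3, Rab40b, Ldlrad4, Cpm, Dock10, Aldh1a1 and Rxrg (adjusted p = 0.0606 to 0.298), and that of Klhl4, Tnfaip3, Rasgrp3, Rab40b, Ldlrad4, Cpm, Dock10, Aldh1a1 and Rxrg without SEZ_GFPprom replicate 1, 2, 3 or 4 or under another alternative (adjusted p = 0.0504 to 0.134). Ldlrad4 did not pass once shared-sequence probe sets were left out (adjusted p = 0.108).

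Markers of vessels and meninges gave some calls and those of blood none, beside a background of 4.40% higher and 2.76% lower over all genes. Of 18 endothelial markers, Pltp, a lipid transfer protein, was higher by 3.59 on the log2 scale (4452, 3724, 2373 and 4361 in SEZ_GFPprom against 234 and 386 in SEZ_Prom, adjusted p = 0.000383), and the glucose transporter Slc2a1 was 3.30-fold higher (adjusted p = 0.0198), and 14 of the 18 differences were positive, with a median of 0.31. Of the genes that define endothelium, Cldn5, a tight junction protein, read 31, 123, 29 and 63 against 29 and 18 (adjusted p = 0.3), and Pecam1 read 7 to 9 against 9 and 11; neither passed. Of 14 mural markers, Acta2, smooth muscle actin, read 1789, 972, 611 and 1176 against 80 and 76 (13.6-fold higher, adjusted p = 0.000201) and Tagln was 3.31-fold higher (adjusted p = 0.00801), while Pdgfrb and Rgs5, of pericytes, did not pass (adjusted p = 0.307 and 0.944). Without probe sets of shared sequence Acta2 did not pass (log2 difference 0.28, adjusted p = 0.473). Of 13 fibroblast markers, the collagen gene Col1a2 was higher (3.62-fold, adjusted p = 0.0385), the growth factor gene Igf2 was lower (4.65-fold lower, adjusted p = 0.0146) and Lum lay at 8 to 9 on all 6 arrays. None of 17 leukocyte and border macrophage markers or 6 erythrocyte genes passed, and Cd163 and Hba-a1 read 6 to 8 and 8 to 13 in SEZ_GFPprom, against 7 to 8 and 10 to 12 in SEZ_Prom. Mrc1, of macrophages, and Alas2, of erythrocytes, did not pass either (adjusted p = 0.778 and 0.993). Their part in the differences above was not tested. Without SEZ_Prom replicate 1 or 2, Slc2a1, Tagln, Col1a2 and Igf2 missed the threshold (adjusted p = 0.0651 to 0.386), and so did Slc2a1 and Col1a2 without SEZ_GFPprom replicate 1, 2 or 4 or under another alternative (adjusted p = 0.0504 to 0.152). With shared-sequence probe sets left out, Slc2a1 and Col1a2 did not pass (adjusted p = 0.868 and 0.85).

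Genes of general cell function gave almost no calls, beside a background of 4.40% higher and 2.76% lower over all genes. None of 25 cytosolic ribosomal protein genes, 30 respiratory chain subunits, 14 glycolysis genes, 20 fatty acid oxidation genes, 16 apoptosis genes or 21 immediate early genes passed. Their medians lay between -0.37 for glycolysis and 0.05 for the respiratory chain. The first members of these lists lay at log2 differences of -0.72 and -0.32 for Rpl4 and Rpl6, 0.58 and -0.57 for Ndufa1 and Ndufa4, -0.68 and 0.21 for the hexokinases Hk1 and Hk2, 1.00 and -0.43 for the carnitine transferases Cpt1a and Cpt2, and 0.29 and -0.35 for the survival genes Bcl2 and Bcl2l1 (adjusted p = 0.159 to 0.878). Fos, an immediate early gene, read 7746, 4793, 4885 and 6963 in SEZ_GFPprom and 6727 and 5329 in SEZ_Prom (log2 difference -0.01 ± 0.26, SE, adjusted p = 1.0), and Fosb read 60 to 307 against 163 and 137 (adjusted p = 0.956). Single calls were Ring1, a Polycomb subunit, which was 2.58-fold higher among 24 chromatin regulators (adjusted p = 0.0176), Sdf2l1, of the endoplasmic reticulum, which was 1.85-fold lower among 18 stress genes (adjusted p = 0.031), and Dhcr7, the last enzyme of cholesterol synthesis, which was 2.51-fold lower among 19 genes (adjusted p = 0.0495). The methyltransferases Dnmt1 and Dnmt3a, the heat shock genes Hspa1a and Hspa1b and the sterol enzymes Hmgcs1 and Mvk did not pass (adjusted p = 0.269 to 0.978). Read without probe sets of shared sequence, Hmgcs1 was lower, with a log2 difference of -1.0034 (adjusted p = 0.027). Ring1, Sdf2l1 and Dhcr7 missed the threshold without SEZ_Prom replicate 1 or 2 (adjusted p = 0.143 to 0.248), and also without SEZ_GFPprom replicate 1, 2, 3 or 4 or under another alternative (adjusted p = 0.0514 to 0.138). Once shared-sequence probe sets were left out, Dhcr7 kept the same log2 difference and did not pass (limma, adjusted p = 0.0551).

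The other sorts show where these levels lie within the series, as a description with no test. The 19 ependymal markers summed to 21050 to 37439 in SEZ_GFPprom and to 1078 and 1730 in SEZ_Prom, beside 1210 and 2124 in SEZ_GFP, 664 and 1113 in SEZ_CD24 and 8473 to 12729 in DIEC_GFP. Motile cilium components had the same order, with 11377 to 14609 in DIEC_GFP and at most 2706 in SEZ_GFP and 1894 in SEZ_CD24. In the SEZ_CD24 sort, which the labels call ependymal, Foxj1 had a mean log2 level of 5.81, against 9.71 in SEZ_GFPprom and 5.90 in SEZ_Prom. Oligodendrocyte markers summed to 13979 to 23533 in SEZ_GFPprom and 48549 and 51166 in SEZ_Prom, beside 6264 and 9208 in SEZ_GFP, 7295 and 14114 in SEZ_CD24 and 43651 to 73799 in DIEC_GFP. Mitosis genes summed to 11743 to 20270 in SEZ_GFPprom and 6385 and 6587 in SEZ_Prom, beside 23275 and 27965 in SEZ_GFP, 12193 and 17565 in SEZ_CD24 and 2338 to 3886 in DIEC_GFP. Choroid plexus markers summed to 1432 to 10363 in SEZ_GFPprom and 13145 and 13993 in SEZ_Prom. They summed to 554 and 9397 in SEZ_GFP, 9337 and 15201 in SEZ_CD24 and 2208 to 10125 in DIEC_GFP. Most of the sum on each SEZ_Prom array came from Ttr, which did not pass and spread widely within SEZ_GFPprom. These sums therefore do not stand for the level of the list's members that were lower.

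**Figure D5:**
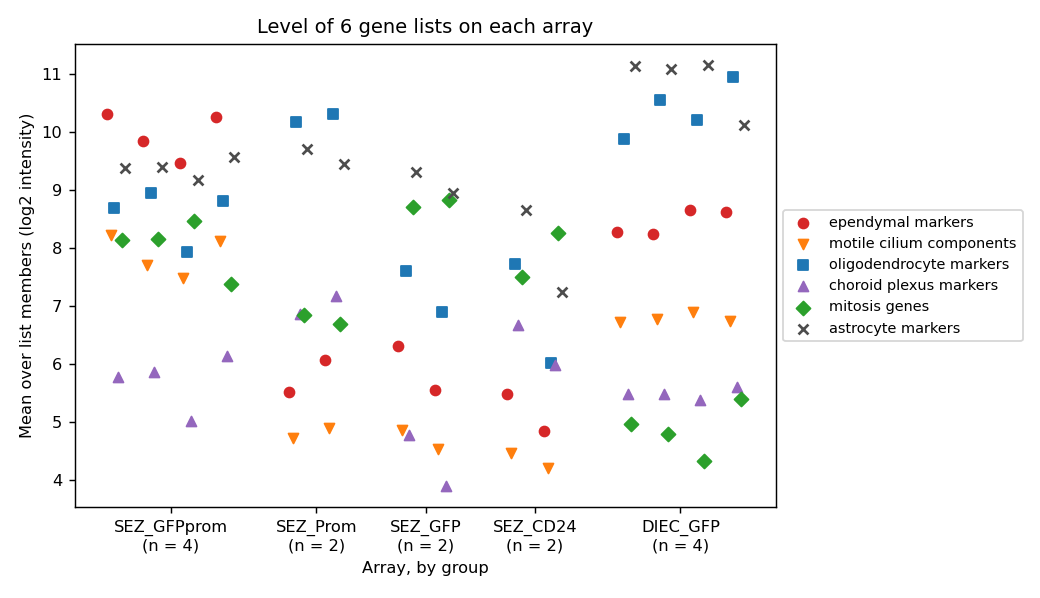
Mean log2 intensity over the members of 6 gene lists on each of the 14 arrays, by group (SEZ_GFPprom n = 4, SEZ_Prom n = 2, SEZ_GFP n = 2, SEZ_CD24 n = 2, DIEC_GFP n = 4). Ependymal and cilium lists are at their highest on the SEZ_GFPprom arrays, and oligodendrocyte and choroid plexus lists lie higher on both SEZ_Prom arrays than on the SEZ_GFPprom arrays.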

How the data were processed

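RNA of fluorescence-sorted cells was measured on Affymetrix mouse expression arrays, 14 in 5 groups, 6 of them compared here. Per the labels' protocols, RNA was column-purified with DNase, amplified in 2 rounds and biotin-labelled. As deposited, values are linear intensity values rounded to whole numbers, made by RMA per the submitters' processing notes, with no version given. The plan allowed for log2 values, so log2 was taken here, with no pseudocount.

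Of 45101 probe sets, 34945 with exactly 1 gene symbol were used (932 listed several and 9160 none). Each gene was read by its brightest probe set by mean, giving 18193 genes, 9010 with more than 1 probe set. Limma 3.58.1 in R 4.3.3 (lmFit, contrasts.fit, eBayes) was fitted to 14 arrays with a mean per group (9 residual and 2.627 prior degrees of freedom). Differences are SEZ_GFPprom minus SEZ_Prom on the log2 scale, and two-sided p-values were adjusted by the Benjamini-Hochberg method across the 18193 genes, with a threshold of 0.05. A dim gene's fold was also taken with intensities under 10 set to 10. No depth applies to arrays, and their number limits the precision.

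The members and the 43 gene lists were chosen with earlier results of these data known. Named were the sort markers and the 15 highest and 15 lowest genes past the threshold whose arrays did not overlap. Clone and model names were left out. Of each list, its first 2 members and up to 5 past the threshold per direction were named. Ependymal, multiciliated regulator, cilium and other genes beyond this rule were also named, and not every such gene is marked. On simulated data for this comparison over 18193 genes, the fit recovered 35.38% of 65 genes changed by 1 on the log2 scale. It recovered 67.69% of 65 changed by 2 and 95.71% of 70 changed by 3, and 4.29% of its calls were unchanged genes. The simulation changed far fewer genes than were called here and drew independent normal noise with 1 spread per gene for all groups. Its figures hold for those settings and do not give the power or error rate of the real comparison. The labels do not say whether replicate numbers pair the arrays. Deviations from the group means correlated between -0.0969 and 0.0969. With 2 SEZ_Prom arrays their deviations mirror each other, so these correlations cannot decide the pairing. Alternatives changed the normalization, the floor, the filter on dim genes, the probe set, the arrays in the fit, a replicate block, array weights, the prior and an RNA amplification covariate, and left out each array in turn.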

Additional observations from a re-analysis of the deposited data

Results flagged for a closer look

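Of the 230 genes the text names, 20 had a SEZ_GFPprom array whose distance from the nearest of the others took more of the group's range than Dixon's 95% critical share for 4 arrays, and about 1 in 20 groups, 5% of them, exceed it by chance. On replicate 3, 6 genes stood apart, all below the other arrays: Zmynd10 (138, share 0.904), Cfap45 (182, 0.880), Tgm2 (415, 0.966), Ermn (136, 0.922), Mbp (4147, 0.875) and Aldh1l1 (245, 0.895). On replicate 1, Bambi was above the others (391, 0.883) and Rxrg below (127, 0.842), and on replicate 4 Mcm6 was below (307, 0.865). On replicate 2, Spag6l (57, 0.923) and Bcl2 (164, 0.896) were below the others, and Klhl4 (31, 0.831), Dcn (49, 0.886) and Tnc (81, 0.869) above. The remaining 6 genes, Kl and Gpr34 on replicate 2 and Aqp1, Slc4a5, Aldh1a2 and Cdh1 on replicate 1, had a share of 1.0 at intensities of 5 to 12, where the other arrays were equal after rounding. Single-array flags of this kind were not tested further.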

How the results depend on the processing

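Of the 145 named genes past the threshold, 95 were tested in all 25 alternatives and 28 of these passed in all of them; filters on dim genes or shared sequence removed the other 50 from at least 1 alternative, and 25 of those passed wherever they were tested. Of the 145, 86 missed the threshold without at least 1 SEZ_Prom array (73 without replicate 1, 68 without replicate 2), and 31 without SEZ_GFPprom replicate 1; where 1 SEZ_Prom array is left, it is assumed to vary like the other groups. Leaving out each array in turn gave 348 to 1525 genes past the threshold, 267 to 879 higher and 81 to 646 lower, and for the lists 18 to 19 ependymal, 37 to 52 cilium, 2 to 19 transport and basal body, 2 to 8 stem cell and 2 to 13 mitosis genes higher, and 1 to 8 oligodendrocyte and 4 to 5 choroid plexus genes lower. The replicate block gave 811 genes, 266 of them lower, with 5 stem cell, 5 mitosis and 4 oligodendrocyte genes. Whether the replicate numbers pair the arrays is not known. Array weights gave 816 lower genes. The covariate for RNA amplification gave 4 oligodendrocyte genes, the fit of 6 arrays alone 8 transport genes, and leaving out probe sets of shared sequence 3 mitosis genes. With fewer genes tested, 1 choroid plexus gene remained lower without the dimmest 25% or 50% of genes, and 31 cilium genes higher without the dimmest 50%. Read by other probe sets, Ncam1 turned to -0.51 with the mean of its probe sets and -1.41 without those of shared sequence, and Anxa2 to -0.37 and Cenpa to -0.77 without them (limma, adjusted p = 0.0764, 0.436, 0.343 and 0.358), while Hmgcs1, which had not passed, turned to -1.0034 without them and passed (adjusted p = 0.027); the cause was not tested. The other counts over all genes and for the lists of this paragraph stayed within 1.5 times the reported count. Counts of other lists were small and could move further. With values under 10 set to 10, 25 of the 145 named genes past the threshold missed it. Among them were Cdkn1a, Cdk6, Aldh1a1, Rxrg, Gria1 and Grm5 (limma, adjusted p = 0.0551 to 0.0773). Of these, Cdkn1a, Cdk6, Rxrg, Gria1 and Grm5 kept the same log2 difference with the floor. Dim genes near an intensity of 10 have differences limited by background.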

Other observations

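Some genes outside the lists, chosen after their values were seen, had large differences. Cxcr4, the chemokine receptor that progenitors use near vessels, read 246, 212, 233 and 158 in SEZ_GFPprom and 9 and 16 in SEZ_Prom, 16.6-fold higher with values under 10 set to 10 (limma, adjusted p = 0.00587). Car9, a carbonic anhydrase at the cell surface, read 347, 167, 162 and 308 against 11 and 18 (16.5-fold higher, adjusted p = 0.000524). Tgm2, a transglutaminase, was 11.6-fold higher (1234, 1219, 415 and 1189 against 40 and 159, adjusted p = 0.00368), and missed the threshold without SEZ_Prom replicate 1 (adjusted p = 0.065). Anxa2, a membrane-binding annexin, was 21.8-fold higher by its brightest probe set (adjusted p = 5.5e-05) and turned to a log2 difference of -0.37 without probe sets of shared sequence (adjusted p = 0.343).

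On the lower side, Septin4, a cytoskeletal septin of myelin, read 387, 462, 215 and 422 in SEZ_GFPprom and 2604 and 2990 in SEZ_Prom (7.82-fold lower, adjusted p = 0.00269). Car2, a carbonic anhydrase of oligodendrocytes and choroid plexus, read 1187, 1343, 1245 and 1548 against 5757 and 5963 (4.43-fold lower, adjusted p = 0.00506). Gatm, an enzyme of creatine synthesis, was 7.53-fold lower (241, 157, 59 and 228 against 1137 and 1126, adjusted p = 0.00912). Hapln2, a matrix link protein of the node of Ranvier, was 6.61-fold lower (adjusted p = 0.00393). Car2 and Gatm missed the threshold without SEZ_Prom replicate 1 (adjusted p = 0.0577 and 0.0878), and Car2, Gatm and Hapln2 without replicate 2 (adjusted p = 0.0535, 0.0746 and 0.0611).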
